A study of Homo sapiens with 12 samples.

Results

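The cytosolic heat shock genes were followed in HepG2 cells, an established human liver cancer cell line, under low and high glucose with and without valproic acid (VPA). The 10 genes were chosen by name: HSF1, which encodes the transcription factor of the heat shock response, and 9 genes of the chaperones and co-chaperones that work in the cytosol, HSPA1A, HSPA1B, HSPA8, HSPA4, HSPH1, HSPB1, HSP90AA1, DNAJB1 and DNAJB5. Each of the 10 had 1 row in the table of 16389 genes, and all 10 passed the filter on low counts in every comparison.

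Chaperones bind unfolded stretches of other proteins and help them to fold. In unstressed cells HSF1 is held inactive by HSP70 and HSP90 chaperones in the cytosol. When unfolded proteins occupy these chaperones, HSF1 forms trimers, binds heat shock elements, which are runs of alternating GAA and TTC units in promoters, and raises transcription of chaperone genes. HSP70 works in a cycle of ATP hydrolysis that J-domain proteins start and nucleotide exchange factors reset, HSP90 acts on proteins that are close to their folded state, and small heat shock proteins hold unfolded proteins without using ATP.

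The cells were cultured for 48 h in 5.5 mM glucose (LG) or in 20 mM glucose (HG), the condition used in the study as a model of hyperglycaemia. The LGV and HGV cells were kept in the same media and exposed for a further 12 h to 1 mM VPA, an antiseizure drug that inhibits histone deacetylases. Each of the 4 groups had 3 libraries of poly(A) RNA from the one cell line. The sources do not say whether the 3 libraries came from separate cultures, so p-values measure only the spread between these libraries, which may be technical. The time at which the untreated cells were harvested, relative to those 12 h, is not given in the sources used here, and no group had its osmolarity matched to that of HG, so that glucose and osmolarity cannot be told apart.

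Between 29798442 and 45572694 reads per library were counted on genes. Reads of mitochondrial genes took 5.70% to 6.28% of the counts in LG, 7.50% to 7.72% in HG, 6.42% to 7.62% in LGV and 7.95% to 8.91% in HGV. All 9 hepatocyte markers were found, and their summed level, as counts scaled to library size alone (CPM), ran from 39506 to 43848 CPM in LGV and from 46642 to 67362 CPM in the other groups. The other marker sums here are on the same scale. Levels of single genes below are CPM scaled with TMM factors as well, except where library sizes alone are named. Markers of leukocytes (2 of 4 in the table, PTPRC and CD3E not analysed here) summed to 1.45 to 3.29 CPM in LG, 4.93 to 5.60 in HG, 3.34 to 3.87 in LGV and 6.29 to 7.01 in HGV. Endothelial markers (2 of 3, without PECAM1) summed to 4.19 to 5.07 CPM in HGV and to 2.16 to 3.73 in the other groups. Fibroblast markers (2 of 4, without COL1A2 and DCN) summed to 33.3 to 52.3 CPM in LG, 18.6 to 29.5 in HG, 31.2 to 44.3 in LGV and 27.5 to 36.01 in HGV. The part of these differences in the results was not tested, and in bulk RNA fewer cells of a type and less RNA per cell cannot be told apart.

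The promoters of the members were searched for the units that HSF1 recognises, in the 250 bases before each transcript start given by RefSeq. An entry was found for 9 of the 10 genes, with 12 promoters in all, and HSF1 was not searched. A pair of facing units, GAANNTTC or TTCNNGAA, was present before 6 of the 9 genes, in 6 of 12 promoters (50%), against 4067 of 35116 promoters of all genes (11.6%). Both motifs read the same on either strand and were allowed to overlap. A run of 3 units, GAANNTTCNNGAA or its reverse complement TTCNNGAANNTTC, was present before HSPA8 and HSP90AA1, in 2 of 12 promoters (16.7%) against 155 of 35116 (0.441%), and each such run also holds pairs. The letters were not found in these windows for HSPA4, HSPH1 and DNAJB5. A match describes the letters and does not show that HSF1 was bound. The matched stretches are printed with 15 bases on either side, because the units differ in number and spacing between members whose levels went different ways. Capitals mark the matched motifs, including the bases between their units. The sequences are from RefSeq (GRCh38.p14), and the positions are those of the same letters in GRCh37.
HSPA1A, chr6:31783199-31783236, plus strand, units 106 to 99 bases before the start: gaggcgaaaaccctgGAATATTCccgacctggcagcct
HSPA1B, chr6:31795395-31795432, plus strand, units 105 to 98 bases before the start: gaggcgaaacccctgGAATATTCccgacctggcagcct
HSPA8, chr11:122933047-122933089, minus strand, units 230 to 218 bases before the start: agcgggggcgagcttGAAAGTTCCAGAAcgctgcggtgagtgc
HSPA8, chr11:122932872-122932914, minus strand, units 55 to 43 bases before the start: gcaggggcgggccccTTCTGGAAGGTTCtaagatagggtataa
HSP90AA1, chr14:102553427-102553484, minus strand, units 88 to 61 bases before the start: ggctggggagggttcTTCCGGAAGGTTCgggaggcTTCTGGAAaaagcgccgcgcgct
DNAJB1, chr19:14629234-14629301, minus strand, units 77 to 40 bases before the start: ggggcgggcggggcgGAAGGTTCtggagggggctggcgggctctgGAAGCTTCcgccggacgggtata
HSPB1, chr7:75931793-75931830, plus strand, units 182 to 175 bases before the start: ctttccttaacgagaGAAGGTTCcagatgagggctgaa

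The members did not move as one block. VPA came with more reads of the stress-inducible HSP70 genes HSPA1A and HSPA1B, of the small heat shock protein HSPB1 and of the J-domain gene DNAJB5 in both media, and with fewer reads of HSPA8, the constitutive HSP70, and of HSF1. High glucose came with more HSPA1A and HSPA1B and with less HSPH1 and DNAJB1 in the absence of VPA. HSPA4 and HSP90AA1 were not called in any comparison. Per kilobase of the main transcript, HSPA8 was the highest of the 10 in each group, with means of 724, 578, 455 and 343 CPM per kb in LG, HG, LGV and HGV. HSP90AA1 came next (258, 241, 280 and 229), followed by DNAJB1 (109, 74.3, 139 and 110), while DNAJB5 was last (0.931, 0.597, 1.78 and 3.23). The members between them lay at 18.1 to 55.3 CPM per kb in all groups, and most neighbours in that order, such as HSPA4 and HSF1 in LG (48.0 ± 4.53 and 44.1 ± 5.05, SD, n = 3), did not differ beyond their spread. The places of HSPA1A and HSPA1B cannot be compared with the others, since most of their sequence is shared between them and reads of low mapping quality were not counted, so their levels may be too low. The order within it changed with the group. HSPH1 stood at place 4 in LGV with 55.3 ± 9.17 CPM per kb and at place 9 in HGV with 22.1 ± 1.55 (SD, n = 3).

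**Figure D1:**
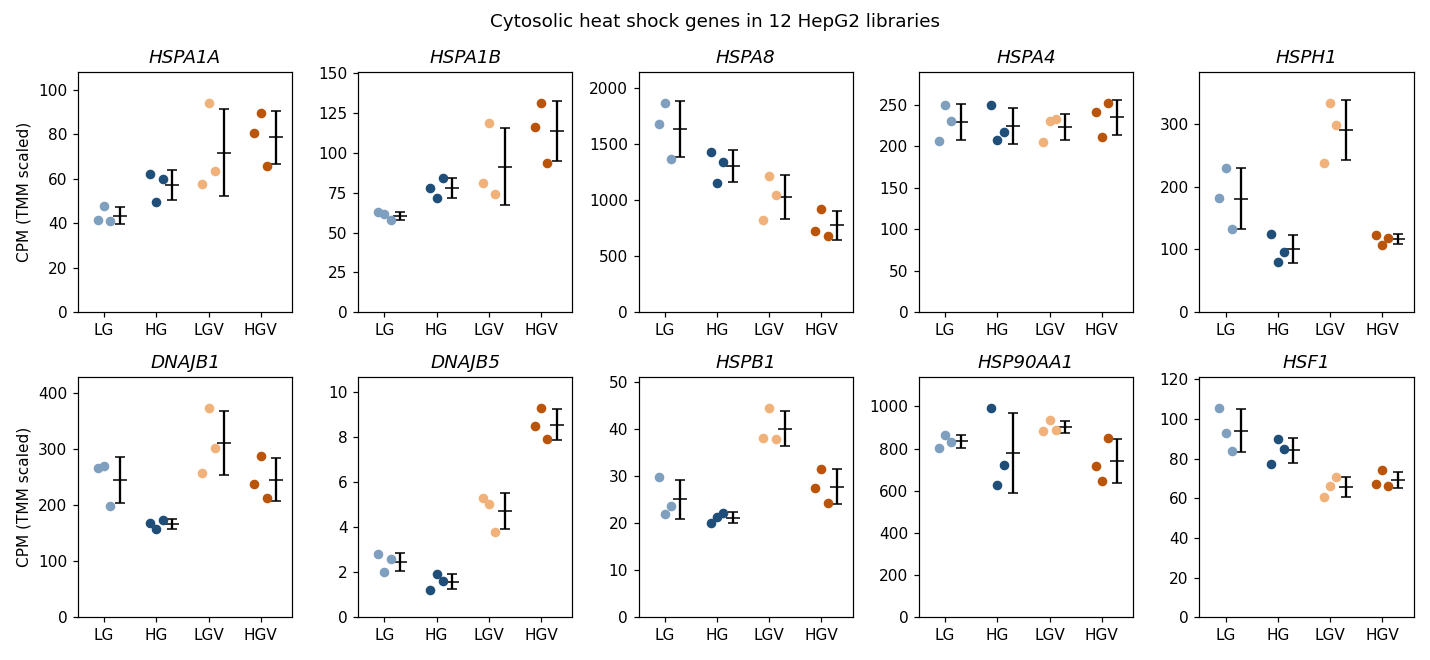
Level of each of the 10 genes in the 12 libraries, in CPM scaled with TMM factors, with points for libraries in replicate order and bars for the mean ± SD of 3 libraries per group, each panel with its own axis from 0. HSPA8 is at 1371 to 1867 CPM in LG and 680 to 925 in HGV, while DNAJB5 in HGV (7.91 to 9.27 CPM) lies above every other library and HSPA4 stays between 205 and 252 CPM.

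High against low glucose without VPA asks what 20 mM glucose changed. HSPA1A and HSPA1B rose, to 1.34-fold and 1.31-fold, while HSPH1, the HSP110 nucleotide exchange factor, fell by 0.83 and DNAJB1, a J-domain partner of HSP70, fell by 0.54 on the log2 scale. Of the 10 members, 4 were called by edgeR's quasi-likelihood test at a Benjamini-Hochberg adjusted p (FDR) of 0.05 or less, against 24.7% of all genes tested. The 2 called higher stand against 12% of all genes called higher, and the 2 called lower against 12.7%. For 5 members all HG libraries lay on one side of all LG libraries, without overlap, against 41.2% of all genes. The median log2 fold change was -0.18 over the members and 0.01 over all genes.

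VPA in low glucose asks what the drug changed in 5.5 mM glucose. HSPA1A, HSPA1B, HSPH1, HSPB1 and DNAJB5 rose, between 1.52-fold and 1.93-fold, and HSF1 and HSPA8 fell by 0.50 and 0.66 on the log2 scale. Of the 10 members, 7 were called, against 41.6% of all genes tested, 5 of them higher against 21.7% and 2 lower against 19.9%. The groups did not overlap for 8 members, against 50.5% of all genes. The median log2 fold change was 0.48 over the members and -0.01 over all genes.

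VPA in high glucose asks the same in 20 mM glucose. HSPA1A, HSPA1B, HSPB1, DNAJB1 and DNAJB5 rose, DNAJB5 to 5.39-fold and the other 4 between 1.31-fold and 1.48-fold, and HSF1 and HSPA8 fell. Of the 10 members, 7 were called, against 46.1% of all genes, 5 higher against 25.8% and 2 lower against 20.2%. The groups did not overlap for 7 members, against 54.6% of all genes, and the median log2 fold change was 0.30 over the members and 0.02 over all genes.

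High against low glucose in cells exposed to VPA called 4 of the 10 members, against 40.7% of all genes. DNAJB5 was the 1 called higher, against 21.2% of all genes, and HSPA8, HSPH1 and HSPB1 were the 3 called lower, against 19.5%. The groups did not overlap for 4 members, against 51.4% of all genes, and the median log2 fold change was -0.13 over the members and 0.01 over all genes. The difference between the VPA responses in the 2 media was tested as an interaction over the 12 libraries. None of the 10 members was called by the quasi-likelihood test, against 0.0427% of all genes (7 of 16389), and 1 of them, DNAJB5, had an unadjusted p under 0.05. DESeq2's Wald test and edgeR's likelihood ratio test each called that 1 member, but they called more of all genes too (0.988% and 1.23%). For the other 9 members the interaction lay between -0.47 and 0.23 on the log2 scale, with FDR from 0.493 to 0.966. Each group served in 2 of the 4 comparisons, so that comparisons that share libraries are not independent of each other.

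**Figure D2:**
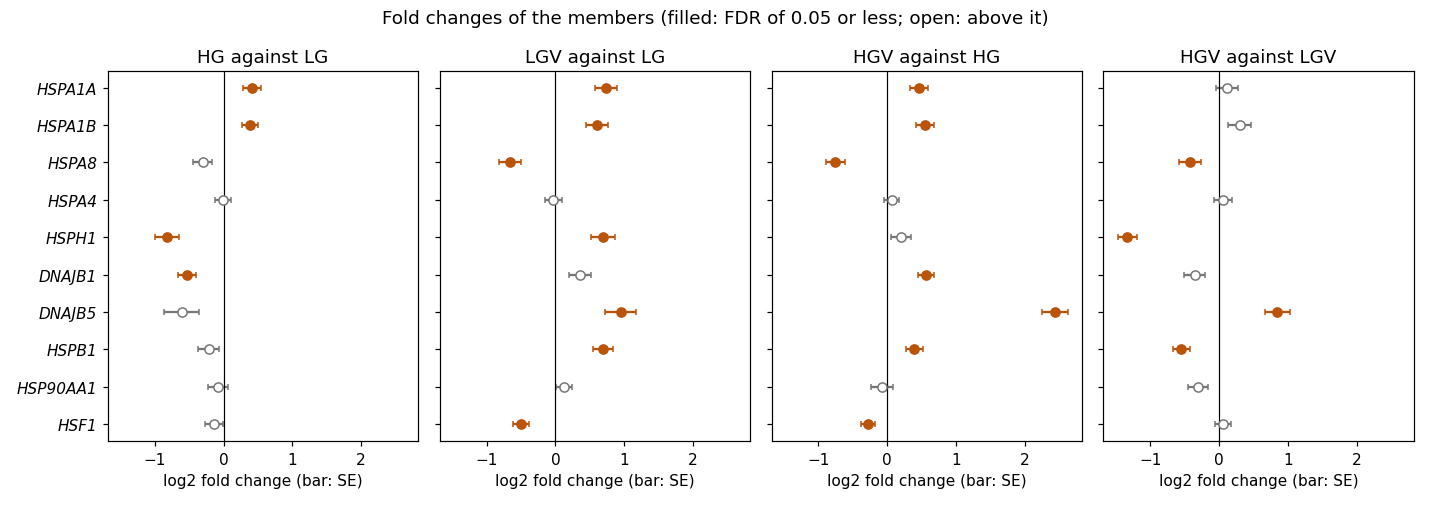
Log2 fold change of each gene (horizontal axis) in 4 comparisons of edgeR's quasi-likelihood test, with bars of 1 SE from 3 against 3 libraries, filled points at an FDR of 0.05 or less and open points above it. HSPA8 lies left of 0 in all 4 panels, though it is open for HG against LG, DNAJB5 reaches 2.43 for HGV against HG, and HSPH1 reaches -1.34 for HGV against LGV.

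HSF1, the transcription factor, is on chromosome 8, and its exons overlap those of DGAT1 on the other strand by 137 of 5305 bases. Its levels were 105, 93.1 and 83.9 CPM in LG and 77.6, 89.8 and 85.1 in HG, and 60.8, 66.1 and 70.9 in LGV and 67.4, 74.2 and 66.5 in HGV. The 6 libraries with VPA all lay below the 6 without it, though with library sizes alone HGV replicate 2 (77.6) stood above HG replicate 1 (76.9). HSF1 was lower in LGV than in LG (log2 fold change -0.50 ± 0.12 SE, FDR 0.00389). In HGV against HG the log2 fold change was -0.28 ± 0.10 (FDR 0.0403). That call was lost with upper quartile factors (FDR 0.117), with library sizes alone (0.204), in one fit of the 12 libraries (0.0539), and without HG replicate 2 (0.153), HG replicate 3 (0.132), HGV replicate 1 (0.114) or HGV replicate 3 (0.119). Glucose gave no call, with -0.14 (FDR 0.458) without VPA and 0.06 (FDR 0.738) with it. The transcript level of HSF1 does not measure how much of the protein is active.

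HSPA1A and HSPA1B encode the HSP70 that cells make under stress. The genes lie near each other at chr6:31783320-31785723 and chr6:31795515-31798031 (GRCh37, plus strand), and 1766 of the 2351 stretches of 50 bases in the HSPA1A transcript (75.1%) occur in HSPA1B as well, so many reads of this length fit both genes. An aligner gives such reads a low mapping quality, and reads with a mapping quality under 10 were left out of the counts, so the levels of both genes may be too low and rest mainly on the parts that differ. Reads from a noncoding gene that shares 920 of the 2517 exonic bases of HSPA1B on the same strand cannot be told apart from it either. HSPA1A stood at 41.4, 47.8 and 41.0 CPM in LG, 62.1, 49.4 and 60.0 in HG, 57.4, 93.9 and 63.6 in LGV and 80.3, 89.6 and 65.8 in HGV. HSPA1B stood at 62.6, 61.4 and 57.8 CPM in LG, 77.9, 71.6 and 84.2 in HG, 80.8, 119 and 74.1 in LGV and 116, 131 and 93.5 in HGV. For both genes the LG libraries were below all the others, and the LGV group was the most spread, with its replicate 2 on top.

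Both genes rose with high glucose, HSPA1A by a log2 fold change of 0.42 ± 0.13 SE (FDR 0.0279) and HSPA1B by 0.38 ± 0.12 (FDR 0.0266). The HSPA1A call was lost without LG replicate 1 (FDR 0.0923), HG replicate 1 (0.0808) or HG replicate 3 (0.103). The HSPA1B call was lost without LG replicate 1 (0.0523) or HG replicate 3 (0.121). Both were lost in one fit of the 12 libraries (0.0518 and 0.0612) and with a block for the replicate number (0.062 and 0.0765). With VPA in low glucose HSPA1A rose by 0.73 ± 0.16 (FDR 0.00221) and HSPA1B by 0.60 ± 0.16 (FDR 0.00633) on the log2 scale. In high glucose the values were 0.46 ± 0.13 (FDR 0.0131) for HSPA1A, a call lost without HG replicate 2 (0.0669), and 0.55 ± 0.13 (FDR 0.00383) for HSPA1B. Between HGV and LGV neither gene was called (0.12, FDR 0.599, and 0.30, FDR 0.152). HSPA1B was called there without LGV replicate 2 (0.53, FDR 0.0116) and with the block (0.32, FDR 0.0293). With the counted reads of both genes summed, which does not bring back reads that were left out, the log2 fold changes were 0.40 ± 0.12 (FDR 0.0208) for HG against LG, 0.66 ± 0.16 (FDR 0.00368) for LGV against LG, 0.51 ± 0.13 (FDR 0.00587) for HGV against HG and 0.22 ± 0.16 (FDR 0.296) for HGV against LGV. The share of HSPA1B in the summed reads was between 53.8% and 60.2% in the 12 libraries.

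HSPA8 encodes HSC70, the HSP70 that unstressed cells make at high level, and lies at chr11:122928197-122933938 (GRCh37, minus strand). Of its transcript's stretches of 50 bases, 23.2% occur elsewhere in the genome, and its introns hold small nucleolar RNAs, of which 88 and 87 bases (SNORD14C and SNORD14D) are annotated as exonic in some transcript. HSPA8 stood at 1678, 1867 and 1371 CPM in LG, 1432, 1150 and 1343 in HG, 825, 1217 and 1047 in LGV and 724, 925 and 680 in HGV. Every library with VPA was below every LG library, and the HGV libraries were below every HG library. The log2 fold change with VPA was -0.66 ± 0.16 SE (FDR 0.00447) in low glucose and -0.75 ± 0.14 (FDR 0.000686) in high glucose. High glucose gave -0.30 ± 0.13 (FDR 0.0997) without VPA, which was called without LG replicate 3 (-0.41, FDR 0.00914). With VPA it gave -0.43 ± 0.16 (FDR 0.0431), in groups that overlapped. This last call was lost without LGV replicate 2 (FDR 0.205), LGV replicate 3 (0.120), HGV replicate 1 (0.141) or HGV replicate 3 (0.163), and with upper quartile factors (0.1004) or library sizes alone (0.0598).

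The inducible and constitutive HSP70 transcripts were also set against each other within each library, a ratio that no scaling between libraries can change and that was chosen after the values were seen. Since reads shared by HSPA1A and HSPA1B may be missing, the ratio compares counted reads and not numbers of transcripts. Per 100 reads of HSPA8 there were 6.20, 5.85 and 7.20 reads of HSPA1A and HSPA1B together in LG, 9.78, 10.5 and 10.7 in HG, 16.7, 17.5 and 13.2 in LGV and 27.2, 23.9 and 23.4 in HGV. The 4 groups did not overlap, and their means were 6.42 ± 0.70, 10.3 ± 0.50, 15.8 ± 2.32 and 24.8 ± 2.04 (SD, n = 3). This is given as a description with no test. HSPA8 made up 48.7% of the summed CPM of the 10 members in LG, 46.5% in HG, 33.8% in LGV and 32.1% in HGV, and that sum was 3354 ± 368, 2822 ± 373, 3030 ± 383 and 2410 ± 89.2 CPM (SD, n = 3) in the same order.

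**Figure D3:**
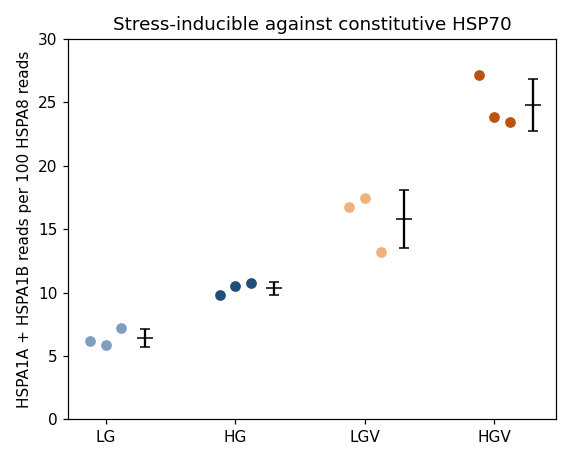
Reads of HSPA1A and HSPA1B together per 100 reads of HSPA8 in each library (vertical axis, from 0) by group, with points for the 3 libraries and bars for the mean ± SD. The groups stand apart in the order LG, HG, LGV and HGV, from 5.85 to 7.20 in LG up to 23.4 to 27.2 in HGV.

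HSPA4 and HSPH1 encode HSP110 proteins, which exchange the nucleotide of HSP70 and so let it release its substrate. HSPA4 (chr5:132387705-132442141, GRCh37, plus strand) was at 207, 250 and 231 CPM in LG, 249, 208 and 217 in HG, 205, 231 and 233 in LGV and 241, 211 and 252 in HGV. The groups overlapped in each comparison, and its log2 fold changes lay between -0.03 and 0.06, with FDR from 0.683 to 0.965. HSPH1 (chr13:31709110-31736525, GRCh37, minus strand) was at 182, 229 and 132 CPM in LG, 125, 80.6 and 96.5 in HG, 238, 333 and 298 in LGV and 123, 107 and 118 in HGV. All LGV libraries were above all others, and the libraries in high glucose were below those in low glucose with and without VPA. HSPH1 fell with high glucose by 0.83 (log2 fold change -0.83 ± 0.17 SE, FDR 0.00217), and among cells with VPA by 1.34 (-1.34 ± 0.14, FDR 1.42e-06). It rose with VPA in low glucose by 0.69 ± 0.18 on the log2 scale (FDR 0.00599). VPA in high glucose gave 0.20 ± 0.14 (FDR 0.273), in groups that overlapped, which was called without HG replicate 1 (0.37, FDR 0.026). The interaction, the VPA response in high glucose minus that in low glucose, was -0.47 ± 0.25 (FDR 0.493), so a difference between the responses was not shown.

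HSP90AA1 encodes the inducible cytosolic HSP90 and lies at chr14:102547079-102606036 (GRCh37, minus strand), and 24.6% of its transcript's stretches of 50 bases occur elsewhere, most of them (18.5%) on chromosome 11. It was at 803, 866 and 833 CPM in LG, 990, 627 and 721 in HG, 885, 937 and 886 in LGV and 720, 646 and 852 in HGV. HG replicate 1 was the highest of the 12 libraries and HG replicate 2 the lowest. The LGV libraries were above the LG and the HGV libraries, but the test called neither difference, with 0.13 ± 0.12 SE (FDR 0.436) for LGV against LG and -0.31 ± 0.14 (FDR 0.0871) for HGV against LGV. The first was called with library sizes alone (0.29, FDR 0.0238). The second was called by DESeq2 (FDR 0.0364), with a block for the replicate number (0.0234) and without HGV replicate 3 (0.0488). HG against LG (-0.08, FDR 0.712) and HGV against HG (-0.08, FDR 0.731) had groups that overlapped.

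DNAJB1 encodes HSP40, the J-domain protein that delivers substrates to HSP70 and takes part in its disaggregating activity. It lies at chr19:14625581-14671203 (GRCh37, minus strand), and its exons overlap those of TECR on the other strand by 525 of 8188 bases. It was at 267, 271 and 198 CPM in LG, 168, 158 and 174 in HG, 258, 373 and 303 in LGV and 238, 287 and 213 in HGV. The 3 HG libraries were the lowest of the 12. DNAJB1 fell with high glucose by 0.54 (log2 fold change -0.54 ± 0.13 SE, FDR 0.00608), a call lost without LG replicate 1 (FDR 0.0553). It rose with VPA in high glucose by 0.56 ± 0.12 on the log2 scale (FDR 0.00195). In low glucose VPA gave 0.36 ± 0.15 (FDR 0.0784), in groups that overlapped. It was called with upper quartile factors (FDR 0.0269), with library sizes alone (0.00535), with a block for the replicate number (0.0356) and without LGV replicate 1 (0.0224). HGV against LGV gave -0.36 ± 0.15 (FDR 0.0635), also in groups that overlapped. It was called without LGV replicate 1 (0.0208) or HGV replicate 2 (0.0171), with the block (0.0128), by DESeq2 (0.0452) and by edgeR's likelihood ratio test (0.0448).

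DNAJB5, a relative of DNAJB1, was the member with the fewest reads, from 39 to 390 per library, and lies at chr9:34989638-34998897 (GRCh37, plus strand). No stretch of 50 bases of its transcript occurs elsewhere. It was at 2.80, 2.02 and 2.58 CPM in LG, 1.24, 1.91 and 1.60 in HG, 5.31, 5.03 and 3.79 in LGV and 8.49, 9.27 and 7.91 in HGV. All libraries with VPA were above all those without, and the HGV libraries were above the LGV ones. DNAJB5 rose with VPA by 0.95 ± 0.23 SE on the log2 scale (FDR 0.00384, 1.93-fold) in low glucose and by 2.43 ± 0.19 (FDR 6.81e-07, 5.39-fold) in high glucose, the largest fold change of any member in these comparisons. Among cells with VPA it was higher in high glucose by 0.85 ± 0.18 (FDR 0.00121). Without VPA the HG libraries were below the LG libraries, with -0.61 ± 0.26 (FDR 0.0893), but with library sizes alone they overlapped, at 1.93 CPM in HG replicate 2 and 1.78 in LG replicate 2. The interaction was 1.49 ± 0.30 (p 6.05e-05, FDR 0.0627 by edgeR's quasi-likelihood test). It was called by DESeq2's Wald test (FDR 0.00196, with 0.988% of all genes called) and by edgeR's likelihood ratio test (FDR 0.00179, with 1.23%). It was also called without LG replicate 2 (0.019), LG replicate 3 (0.0417) or LGV replicate 1 (0.05). The other alternatives did not call it, with FDR up to 0.108, nor did leaving out any other library, with FDR up to 0.194.

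HSPB1 encodes HSP27, a small heat shock protein. It lies at chr7:75931990-75933612 (GRCh37, plus strand), and 16.6% of its transcript's stretches of 50 bases also occur on chromosome 9. It was at 29.7, 21.8 and 23.7 CPM in LG, 20.0, 21.3 and 22.2 in HG, 38.0, 44.3 and 37.9 in LGV and 27.5, 31.5 and 24.2 in HGV. The LGV libraries were above all others, and the HGV libraries were above the HG ones by a narrow margin. HSPB1 rose with VPA in low glucose by 0.69 ± 0.14 SE on the log2 scale (FDR 0.0011) and in high glucose by 0.39 ± 0.12 (FDR 0.0213). The second call was lost without HG replicate 1 (FDR 0.0686), HG replicate 2 (0.0543), HGV replicate 1 (0.0524) or HGV replicate 2 (0.0626). Among cells with VPA it fell with high glucose by 0.55 (log2 fold change -0.55 ± 0.13, FDR 0.00286), and without VPA the value was -0.22 ± 0.15 (FDR 0.309). The VPA response in high glucose minus that in low glucose was -0.29 ± 0.20 (FDR 0.617).

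The other genes of the cytosolic chaperone system were taken in 7 lists of 59 genes, of which 53 were in the table (HSF5 and the small heat shock genes HSPB2, HSPB3, HSPB6, HSPB7 and HSPB9 were not analysed here). In high against low glucose 1 of the 52 tested (1.92%) was called higher and 14 (26.9%) lower, beside 12% and 12.7% of all genes. With VPA in low glucose 12 of 53 (22.6%) were called higher and 6 (11.3%) lower, beside 21.7% and 19.9% of all genes. With VPA in high glucose 12 (22.6%) were called higher and 9 (17%) lower, beside 25.8% and 20.2%, so that with VPA the shares called higher were near those of all genes. In HGV against LGV 4 (7.55%) were called higher and 22 (41.5%) lower, beside 21.2% and 19.5%. The same shares of all genes apply to the counts of each list given next. None of the 53 was called for the interaction by the quasi-likelihood test.

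Among the HSF genes and regulators of HSF1, HSF2 rose with VPA by 0.66 (FDR 0.00801) in low and 0.38 (FDR 0.017) in high glucose on the log2 scale. Its levels were 16.0, 25.1 and 16.5 CPM in LG, 25.3, 33.9 and 31.3 in LGV, 22.6, 19.3 and 19.5 in HG and 25.2, 26.4 and 28.3 in HGV. SIRT1, a deacetylase of HSF1, was called lower in all 4 comparisons, from a mean of 45.8 ± 9.10 CPM in LG to 19.6 ± 1.60 in HGV (SD, n = 3). HDAC6, a cytosolic deacetylase that binds HSP90, was higher in HGV than in LGV (0.51, FDR 0.00191). Of the 5 genes tested, 0 were called higher and 1 lower in HG against LG, and 1 higher and 1 lower in each of the other 3 comparisons.

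Of the other cytosolic HSP70 and HSP110 genes, 4 of 7 were called higher with VPA in each medium, beside 21.7% of all genes in low and 25.8% in high glucose, and none lower, and 1 of 6 was called higher in HG against LG. Their median log2 fold change was 0.43 with VPA in low glucose and 0.48 in high glucose, beside -0.01 and 0.02 over all genes. HSPA12A, a distant relative of HSP70, stood at 7.71 to 10.2 CPM in LG, 10.2 to 12.3 in HG, 21.1 to 22.1 in LGV and 28.6 to 33.9 in HGV. It rose with VPA by 1.27 in low glucose (FDR 1.36e-05) and by 1.44 in high glucose (FDR 1.81e-06) on the log2 scale. HSPA4L, another HSP110 gene, rose by 1.06 (FDR 1.95e-05) and 0.68 (FDR 0.0039), and by 0.49 with high glucose alone (FDR 0.0343). HSPA2 was called higher with VPA at levels close to the limit of counting, 0.0748 to 0.204 CPM in LG and 0.570 to 0.640 in LGV. It averaged fewer than 10 reads in LG and in HG, and passed the filter with VPA only through its reads in LGV and HGV. The filter thus favoured its calls as higher, and they add no support to the counts of 4 of 7, which include it. HSPA6, an inducible HSP70 gene that is nearly silent in unstressed cells, was between 0.214 and 1.404 CPM in all libraries and was not called in any comparison. In HGV against LGV 1 of the 7 was called higher and 1 lower.

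Of the 8 other cytosolic J-domain genes, 3 were called lower in HG against LG and 5 in HGV against LGV, with none higher, and with VPA 1 was higher and 1 lower in low glucose and 1 higher and 2 lower in high glucose. DNAJA4 was lower in HG than in LG (log2 fold change -1.21, FDR 0.00219) and in HGV than in LGV (-1.32, FDR 0.000189). DNAJC7 was called lower in 3 comparisons, by -0.94 in HGV against LGV. DNAJB4, another relative of DNAJB1, rose with VPA by 0.69 (FDR 0.00302) and 0.77 (FDR 0.00152).

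Of the 9 other small heat shock genes 4 were tested. HSPB8, which works with BAG3 in selective autophagy, was at 0.485 to 1.80 CPM in LG, 0.308 to 0.419 in HG, 2.79 to 4.51 in LGV and 1.26 to 1.66 in HGV. It was called lower with high glucose (-1.68, FDR 0.00719, and -1.34 with VPA, FDR 0.000342) and higher with VPA (1.60, FDR 0.00252, and 1.97 in high glucose, FDR 0.00012). HSPB11, listed here by its symbol, rose with VPA by 0.63 and 0.68. Counting it, 2 of 4 were called higher with VPA in each medium, and 1 of 4 was called lower in each glucose comparison. BAG3, a nucleotide exchange factor and known HSF1 target, was at 40.7, 41.4 and 29.1 CPM in LG, 26.5, 28.4 and 26.9 in HG, 34.6, 51.7 and 44.5 in LGV and 35.1, 36.9 and 31.6 in HGV. It was called lower in HG against LG (-0.42, FDR 0.0486) and higher in HGV against HG (0.34, FDR 0.0212). The 9 co-chaperones of HSP70 had 2 called lower in HG against LG, 1 higher and 3 lower in LGV against LG, and 1 higher and 4 lower in each of the other comparisons, among them BAG2, which fell by 0.59 and 0.63 with VPA.

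HSP90AB1, the constitutive cytosolic HSP90, was at 3793 ± 303 CPM in LG, 3192 ± 80.1 in HG, 3127 ± 469 in LGV and 2795 ± 233 in HGV (SD, n = 3) and was not called in any comparison. Of the 12 genes in the list of HSP90 and its partners, 3 were called lower in HG against LG, 3 higher with VPA in each medium, and 1 higher and 5 lower in HGV against LGV. FKBP5, a co-chaperone of HSP90 in steroid receptor complexes, was higher in HGV than in HG (0.77, FDR 9.37e-05) and than in LGV (0.75, FDR 0.000392). FKBP4, its relative in the same complexes, was lower in HGV than in LGV (-0.70, FDR 0.000753) and in HG than in LG (-0.42, FDR 0.0223). CACYBP was lower with high glucose (-0.54 without VPA and -0.85 with it) and higher with VPA in low glucose (0.53). The TRiC chaperonin, which folds actin and tubulin, had 4 of its 8 subunits called lower in HG against LG, 1 in LGV against LG, 2 in HGV against HG and 5 in HGV against LGV, beside 12.7%, 19.9%, 20.2% and 19.5% of all genes, with none higher, and its median log2 fold changes were -0.32, -0.09, -0.15 and -0.44 in that order. CCT5 was called lower in all 4, from 303 ± 12.6 CPM in LG to 145 ± 2.27 in HGV (SD, n = 3).

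Chaperones of other compartments were counted beside the cytosolic ones. All 12 ER chaperones were called lower in HG against LG and in HGV against LGV, with median log2 fold changes of -1.93 and -1.90, while VPA called 1 higher in low glucose, and 2 higher and 1 lower in high glucose, with medians of -0.02 and -0.10. HSPA5, the HSP70 of the ER, was at 4247 to 5862 CPM in LG and 1138 to 1303 in HG. Of the 9 mitochondrial chaperones and proteases 4 were called lower in HG against LG, 1 higher and 5 lower in LGV against LG, 5 lower in HGV against HG, and 1 higher and 6 lower in HGV against LGV. Of all genes, 12.7%, 19.9%, 20.2% and 19.5% were called lower and 12%, 21.7%, 25.8% and 21.2% higher in these comparisons, in the same order. HSPD1, the mitochondrial HSP60, was lower in HGV than in HG (-0.41, FDR 0.0133) and than in LGV (-0.40, FDR 0.0213), and its partner HSPE1 was not called in any comparison.

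**Figure D4:**
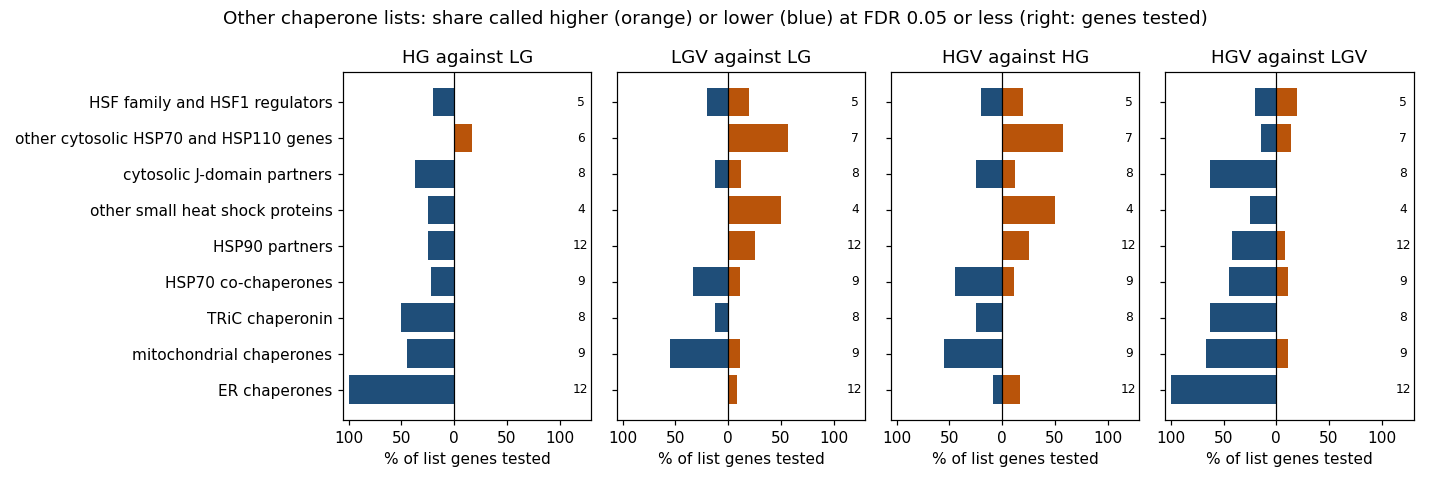
Share of each gene list called higher (orange, right of 0) or lower (blue, left of 0) at an FDR of 0.05 or less, in percent of the list's genes tested, whose number stands at the right of each panel, for 4 comparisons. The ER chaperones are at 12 of 12 called lower in both glucose comparisons, and 4 of 7 of the other cytosolic HSP70 and HSP110 genes are called higher in each VPA comparison. The 4 in each include HSPA2, which passed the filter on low counts only through the libraries with VPA.

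The genes whose pattern over the 12 libraries was most like that of DNAJB1 and HSPH1, which encode no near-identical pair, were taken by Pearson's r of log2 CPM among 11953 other genes. For DNAJB1 they were ATP6V1B2 (0.977), DAD1 (0.976), TMEM50A (0.974), YKT6 (0.974) and APMAP (0.973). For HSPH1 they were GRPEL2 (0.985), KLHL24 (0.985), SNX30 (0.981), AGR2 (0.980) and CACUL1 (0.975). GRPEL2 belongs to the list of mitochondrial chaperones, and no other of these 10 genes is a member or in a list. Among the members, the r of DNAJB1 was 0.849 with HSPB1 and 0.810 with HSPH1. With the remaining members it ran from -0.313 (HSF1) to 0.562 (DNAJB5). The r of HSPH1 with the other members ran from -0.268 (HSF1) to 0.810 (DNAJB1). The libraries fall into 4 groups that share the treatment, so these values describe likeness of pattern and carry no test.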

How the data were processed

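RNA-seq of 12 HepG2 libraries was re-analysed. Per the labels and the paper, the authors trimmed 50 nt single-end reads from a directional poly(A) kit, aligned them to GRCh37 with STAR and counted reads with a mapping quality of at least 10 per Ensembl gene with featureCounts. The table that the authors deposited holds raw, unnormalized counts of 16389 genes, and those averaging fewer than 10 reads were omitted (the lowest mean count is 10). The strand setting of the counting is not given in the sources used here. Base calls were made with bcl2fastq 2.17.1.14.

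Counts were tested with edgeR 4.0.16 (limma 3.58.1, R 4.3.3), with TMM factors, dispersion estimated in the libraries of each comparison, the quasi-likelihood F test and Benjamini-Hochberg adjustment over the genes that averaged 10 or more reads in those libraries. The threshold for a call was an FDR of 0.05. The SE is the log2 fold change divided by the square root of F, and levels are CPM with TMM factors over the 12 libraries. Sums of cell type markers are CPM with library sizes alone. The script was also tested on simulated data. Python 3.11.15, numpy 2.4.6, pandas 2.3.3 and matplotlib 3.10.9 were used for tables and plots. Positions, exon overlaps and shared stretches of 50 bases were taken from GENCODE release 44 on GRCh37, and promoters from RefSeq. The authors counted on an Ensembl annotation of another release, so these overlaps may differ from those in the gene models counted.

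All 10 members were named whatever their values. Of each list, at most 3 called genes with the largest fold changes were named, plus HSP90AB1, HSF2, BAG3, HSPA6, HSPD1, HSPE1 and HSPA5. The members and lists were chosen with earlier results of these data known, and no p was adjusted over a list. Alternatives were DESeq2 size factors, upper quartile factors, library sizes alone, the Wald test of DESeq2 1.42.0, edgeR's likelihood ratio test, no filter, a filter of 1 CPM in at least 3 libraries, an FDR of 0.01, one fit of the 12 libraries, a block for the replicate number, HSPA1A and HSPA1B summed, and each library left out in turn. No library was a repeat of another, as the lowest mean chi-square per gene between libraries was 10.2.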

Additional observations from a re-analysis of the deposited data

Results flagged for a closer look

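For DNAJB5 the libraries in high glucose lay on opposite sides of those in low glucose without and with VPA. Every HG library was below every LG library (log2 fold change -0.61, FDR 0.0893, not called) and every HGV library was above every LGV library (0.85, FDR 0.00121), so that the 2 differences stood 1.45 apart on the log2 scale. The test of this difference, the interaction over the 12 libraries, gave 1.49 with an FDR of 0.0627 by edgeR's quasi-likelihood test, above the threshold. That test called 0.0427% of all genes. The interaction was called by DESeq2's Wald test (FDR 0.00196, 0.988% of all genes called) and edgeR's likelihood ratio test (FDR 0.00179, 1.23%). With library sizes alone the HG and LG libraries overlapped. No cause was tested.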

How the results depend on the processing

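The count of members called for HG against LG was 4 (with 24.7% of all genes called), and 2 at an FDR of 0.01 (12% of all genes), with the replicate block (21.7%) and in one fit of the 12 libraries (26.5%). It ran from 1 (without LG replicate 1, 12.5% of all genes) to 5 (without LG replicate 3, 34.6%) with 1 library left out, and was 2 without HG replicate 3 (13.5%). For LGV against LG (7, with 41.6% of all genes called) it was 9 with library sizes alone (40.5%). With upper quartile factors (41.2%) and with the block (43.7%) it was 8, and leaving out a library gave 7 to 8. For HGV against HG (7) it was 4 at an FDR of 0.01 (33.7% of all genes against 46.1%), and 4 to 7 with a library left out, the lowest without HG replicate 2 (40.2%). For HGV against LGV (4) it was 7 with the block (45.1% of all genes against 40.7%) and 3 to 5 with a library left out. For the interaction (0) it was 1 with DESeq2's Wald test (0.988% of all genes) and edgeR's likelihood ratio test (1.23%), and 0 to 1 with a library left out, 1 without LG replicate 2, LG replicate 3 or LGV replicate 1. Of 850 values of single members under an alternative, 769 kept direction and call, 34 lost a call, 22 gained one, and 25 changed sign, all of them not called. For HG against LG, HSPA4 was 0.0837 with upper quartile factors, 0.0906 with library sizes alone, 0.0130 with no filter, 0.00792 in one fit and -0.0725 to 0.0842 with a library left out, and HSP90AA1 was 0.0142, 0.0212 and -0.27 to 0.0442 with upper quartile factors, library sizes alone and a library left out. HSPA4 in LGV against LG was 0.0502, 0.129 and -0.106 to 0.0377 in the same order. HSP90AA1 in HGV against HG was 0.0482 with library sizes alone. With a library left out it was -0.21 to 0.11, HSPA1A in HGV against LGV was -0.0206 to 0.358, HSPA4 there was -0.00015 to 0.13, and the interaction was -0.20 to 0.16 for HSPA1B and -0.267 to 0.0310 for HSPA8. The cause was not tested.

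Whether the replicate numbers pair the libraries was not settled. Deviations from the group means correlated over 0.1 in 0, 1, 2 and 1 of 3 same-numbered pairs (HG against LG, LGV against LG, HGV against HG, HGV against LGV), and 1, 3, 3 and 2 of 6 libraries correlated best with their own number. The mean correlation was -0.08, 0.05, 0.09 and 0.09 between the same numbers and 0.04, -0.03, -0.05 and -0.04 between different numbers. With the block the HSPA1A and HSPA1B calls of HG against LG were lost (FDR 0.062 and 0.0765), and calls were gained by DNAJB1 in LGV against LG (0.0356) and by HSPA1B (0.0293), HSP90AA1 (0.0234) and DNAJB1 (0.0128) in HGV against LGV. Library sizes alone moved the median of all genes from 0.01 to 0.11, -0.01 to 0.16, 0.02 to 0.15 and 0.01 to 0.10 in that order, and the share of calls that are higher from 48.6% to 62.6%, 52.1% to 69.7%, 56.1% to 68.1% and 52.2% to 62.0%. With upper quartile factors the shares were 64.3%, 61.0%, 62.2% and 63.5%. No called member changed direction under any alternative. Ranked by Spearman's rho, 2 of the 5 genes most like DNAJB1 and 2 of the 5 most like HSPH1 were kept. The members whose groups do not overlap then numbered 4, 10, 6 and 4 with library sizes alone, a check chosen after seeing the data, in place of 5, 8, 7 and 4, beside 41.4%, 50.4%, 54.9% and 50.9% of all genes on the same scale. DNAJB5, with 39 to 390 reads, is the member whose precision depth limits most.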
